A study of Mus musculus with 12 samples.

Results

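Mitochondrial oxidation of fatty acids and of branched and odd-chain acyl-CoAs was followed through 34 genes, out of 26855 genes in the count table of mouse alveolar macrophages. The members were listed by name, with earlier results of these data known, and fall into groups by the step they serve: 4 activate fatty acids, 5 belong to the carnitine shuttle and its control, 7 are dehydrogenases of straight chains, 5 form the trifunctional protein and the later steps of the oxidation spiral, 3 are auxiliary enzymes for unsaturated chains, 3 pass electrons to the respiratory chain and 7 act on branched and odd chains. All 34 had a row in the table, no library was at 0 for any of them, and all 34 passed the filter on low counts. Their genes lie on 15 chromosomes.

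Lavage fluid of the lung was taken 14 days after mice received bleomycin, a lung-injuring drug used to model fibrosis. The series is about border-associated alveolar macrophages (BAAM): filtration by size gave fractions rich and poor in them, and the alveolar macrophages of these fractions were sorted at high, intermediate and low side scatter, a measure of granularity, and BODIPY, a dye of neutral lipid. Full-length cDNA was made with the SMART-Seq HT kit from the polyadenylated RNA of directly lysed cells. The 12 libraries form the groups titled UPBIG, UPSMALL and DOWN, with 4 libraries each, and all of them came after bleomycin. Which fraction or gate lies behind each title cannot be read from the labels, and the titles are used as group names. Strain, sex and age of the mice are not given here. The labels also do not say whether the replicates were separate mice, so the p-values reflect the spread among these libraries alone, which may be technical.

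Fatty acids are burned in mitochondria after an acyl-CoA synthetase has activated them and the carnitine shuttle has carried the long-chain forms across the inner membrane. Each turn of the spiral then runs through a dehydrogenase, a hydratase, a second dehydrogenase and a thiolase, releases acetyl-CoA, and hands electrons through the electron transfer flavoprotein to the respiratory chain. Branched-chain amino acids and odd-numbered chains feed into related dehydrogenases and into propionyl-CoA carboxylase. Resting alveolar macrophages live in lipid-rich surfactant, which they take up and break down.

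The libraries held 17109669 to 23282621 expected counts, and 12625 genes were tested. Values are CPM, counts scaled to a common library size, on TMM-scaled totals, which correct for a few very abundant transcripts. The TMM factors were 0.858 to 0.896 in UPBIG, 0.992 to 1.171 in UPSMALL and 1.029 to 1.162 in DOWN. Lyz2, Ftl1 and Fth1 together took 26.5% to 29.1% of the counts in UPBIG, 15.5% to 23.8% in UPSMALL and 19.5% to 22.02% in DOWN. UPBIG 1 and UPSMALL 4 lay at opposite ends of principal component 2, at 45.4 and -45.8.

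All 10 listed markers of alveolar macrophages were present in every group. Their summed level was 120024 to 124727 CPM in UPBIG, 60393 to 119119 CPM in UPSMALL and 78034 to 111213 CPM in DOWN, most of it Lyz2, which was called in no comparison. In UPBIG against DOWN 5 of the 10 were higher (Siglecf, Marco, Fabp4, Ear2 and Plet1) and 1, Car4, lower, and in UPBIG against UPSMALL 3 were higher and 1 lower. Markers of other cells also moved with the groups. The 8 dendritic cell markers summed to 11.5 to 20.5 CPM in UPBIG, 39.9 to 84.4 CPM in UPSMALL and 74.8 to 144.6 CPM in DOWN, and 6 of 8 were lower in UPBIG than in DOWN. The T and NK cell markers summed to 1.87 to 14.9 CPM in UPBIG, 1.69 to 5.35 CPM in UPSMALL and 24.6 to 87.4 CPM in DOWN, and 7 of 7 tested were lower in UPBIG than in DOWN. Monocyte markers summed to 11262 to 23726 CPM in UPBIG, 12289 to 19509 CPM in UPSMALL and 14271 to 19713 CPM in DOWN, most of it Apoe, which was not called. The 3 of 8 that were lower in UPBIG than in DOWN, and also than in UPSMALL, were Ccr2, Cx3cr1 and Fn1. Ccr2 was at 7.83 to 14.2 CPM in UPBIG, 36.1 to 97.1 CPM in UPSMALL and 168.9 to 201.7 CPM in DOWN. Cx3cr1 was at 0.538 to 2.18 CPM in UPBIG, 11.99 to 22.1 CPM in UPSMALL and 28.4 to 36.97 CPM in DOWN, and Fn1 at 235 to 327 CPM in UPBIG, 945 to 1586 CPM in UPSMALL and 1743 to 1906 CPM in DOWN. Neutrophil markers summed to 382 to 419 CPM in UPBIG, 162 to 219 CPM in UPSMALL and 129.9 to 174 CPM in DOWN, most of it S100a8. S100a8 and Cxcr2 were the 2 of 4 tested that were higher in UPBIG than in DOWN. Csf3r and S100a9 were not called, S100a9 being at 0 to 5.38 CPM in UPBIG and 3.11 to 12.4 CPM in DOWN, and the defining marker Ly6g had no row in the table. B cell markers summed to 0.818 to 21.9 CPM in UPBIG, 2.603 to 13.7 CPM in UPSMALL and 5.93 to 30.1 CPM in DOWN, with 0 of 5 tested called. Lung epithelium markers summed to 17.4 to 231 CPM in UPBIG, 17.7 to 62.0 CPM in UPSMALL and 12.6 to 27.7 CPM in DOWN, with 1 higher and 1 lower of 6 in UPBIG against DOWN. Mitochondrially encoded transcripts made up 4.05% to 5.19% of the counts in UPBIG, 2.68% to 3.43% in UPSMALL and 2.49% to 3.15% in DOWN. The part of these markers and shares in the results below was not tested.

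Genes at several steps of straight-chain oxidation were higher in UPBIG than in DOWN, led by Acadl and Hadhb. Of the 34 members, 11 were higher in UPBIG than in DOWN at an adjusted p under 0.05 (edgeR's quasi-likelihood test, Benjamini-Hochberg over all 12625 genes), which is 32.4% of the members beside 9.03% of all genes tested. These were Acsl1, Cpt2, Mlycd, Acadl, Hadha, Hadhb, Acaa2, Eci2, Etfa, Etfb and Pccb, with log2 fold changes of 0.32 to 1.27. Acsl3 alone was lower, beside 8.48% of all genes. The other 22 did not pass, with log2 fold changes of -0.68 to 0.53, and 18 of them were above 0. The median log2 fold change was 0.32 over the members and -0.03 over all genes, and 29 members were above 0, beside 47.0% of all genes. At an unadjusted p under 0.05, 16 members differed in one direction or the other, beside 29.8% of all genes. In 10 members every UPBIG library exceeded every DOWN library, beside 11.0% of all genes, and in 2, Acsl3 and Pcca, every UPBIG library was below every DOWN library, beside 10.3%. In bulk libraries such as these, a different number of cells of a type and a different amount of RNA per cell cannot be told apart.

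**Figure D1:**
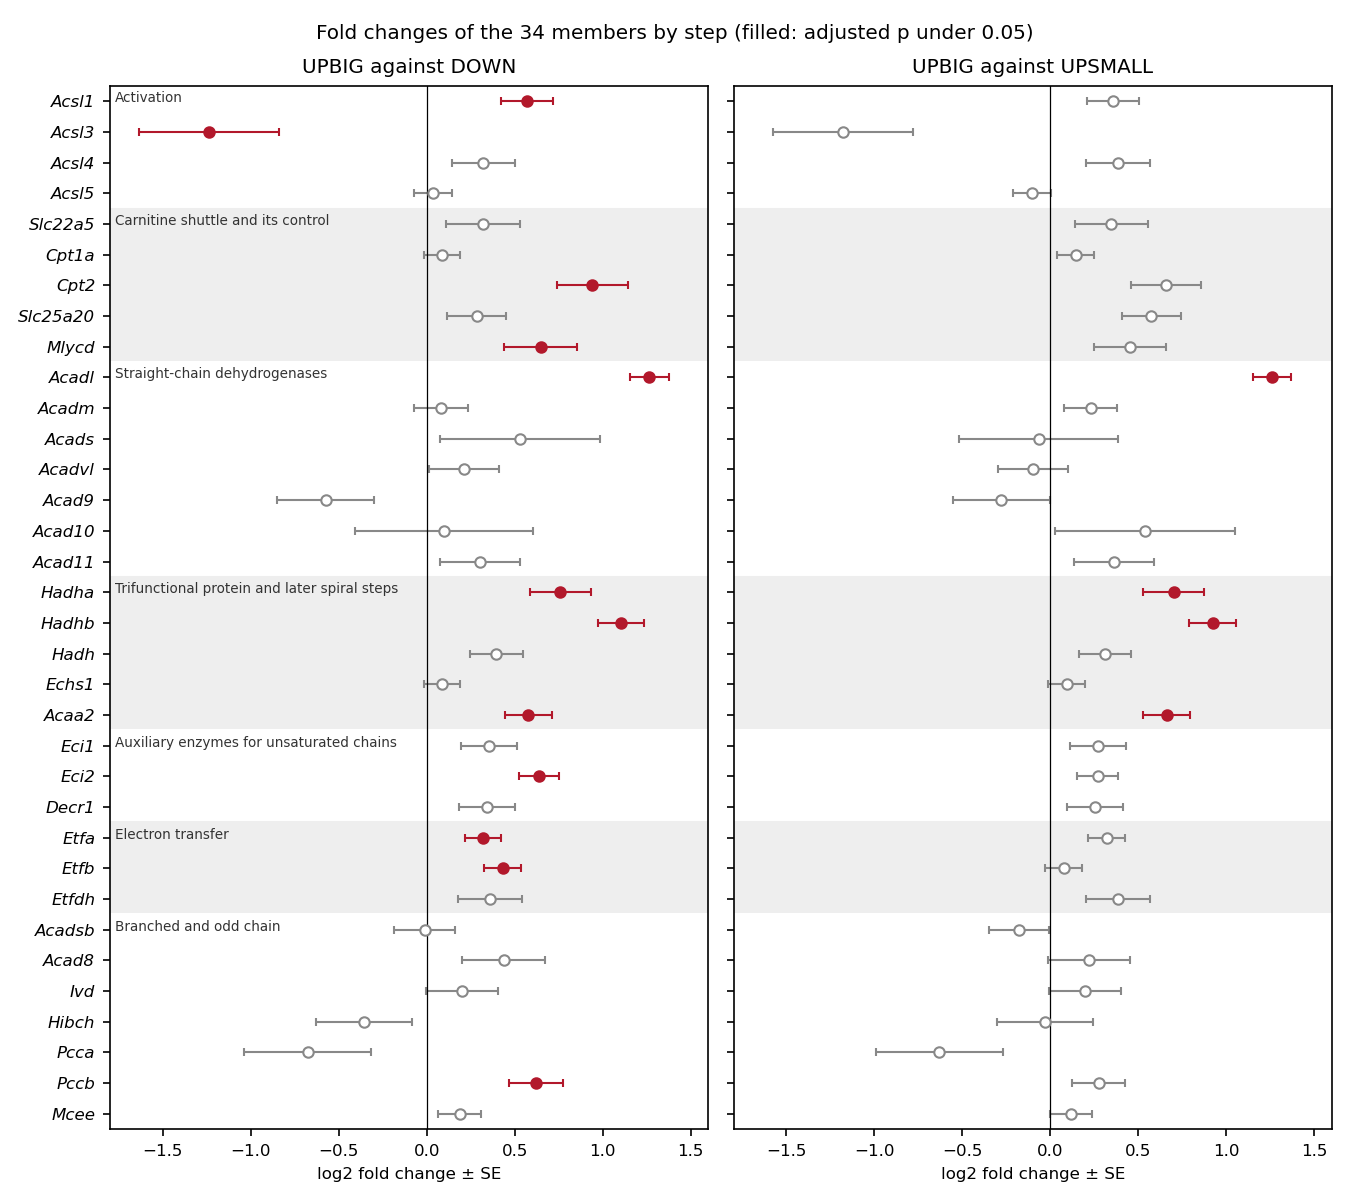
Log2 fold change with its SE (horizontal axis) of the 34 members, ordered by step from top to bottom, in UPBIG against DOWN (left) and UPBIG against UPSMALL (right). Filled red points have an adjusted p under 0.05: 11 higher and 1 lower on the left, and 4 higher on the right, where Acadl and Hadhb again lie farthest to the right.

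Fewer members passed in UPBIG against UPSMALL, and none in UPSMALL against DOWN. Against UPSMALL, 4 members were higher in UPBIG, which is 11.8% of them beside 3.22% of all genes: Acadl, Hadhb, Hadha and Acaa2. None was lower by edgeR's quasi-likelihood test, beside 2.49% of all genes. The median log2 fold change was 0.27 over the members and -0.03 over all genes, 26 members were above 0, beside 46.7% of all genes, and in 11 members every UPBIG library exceeded every UPSMALL library, beside 6.47%. At an unadjusted p under 0.05, 13 members differed in one direction or the other, beside 17.9% of all genes. DESeq2 called 7 members higher and limma-voom called 5. Without UPBIG 1, which lay apart on principal component 2, 9 members were higher than in DOWN and 3 higher than in UPSMALL, and without UPSMALL 4 the count against UPSMALL was also 3.

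Between UPSMALL and DOWN, edgeR's quasi-likelihood test called 0 members, beside 1.14% of all genes, 0.594% higher and 0.547% lower. At an unadjusted p under 0.05 there were 3, Eci2, Etfb and Pccb, beside 12.9% of all genes, DESeq2 called 1, Etfb, and limma-voom called 0. In the same 3 genes every UPSMALL library exceeded every DOWN library, beside 3.87% of all genes. The median log2 fold change was 0.03 over the members and -0.00 over all genes. A joint test of any difference among the 3 groups called 10 members, or 29.4%, beside 13.8% of all genes. The 3 comparisons share libraries, UPBIG in both of its comparisons and likewise UPSMALL and DOWN, so their values are set side by side and not taken as independent of each other.

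The scaling sets the zero of these fold changes. When only library totals were used, the all-gene median in UPBIG against DOWN moved to -0.36 from -0.03, and in UPBIG against UPSMALL to -0.31 from -0.03, and the medians of the members became 0.00 and -0.01. Only Acadl, Cpt2 and Hadhb then remained higher in UPBIG than in DOWN, and Acad9 joined Acsl3 as lower. Against the median of all genes, 30 of 34 members lay above it in UPBIG against DOWN under both scalings, and 26 of 34 in UPBIG against UPSMALL. A change of scaling moves all genes by about the same amount, so these counts could hardly change. Members above 0 numbered 29 with TMM and 17 with library totals alone in UPBIG against DOWN. In UPBIG against UPSMALL they numbered 26 with TMM and 16 with library totals alone. As a share of all counts, with no scaling, the 34 members together made up 0.1423% to 0.1644% in UPBIG, 0.1435% to 0.162% in UPSMALL and 0.135% to 0.1538% in DOWN, and these ranges overlap. On the TMM scale the same sum was 1643 to 1852 CPM in UPBIG, 1385 to 1470 CPM in UPSMALL and 1286 to 1350 CPM in DOWN, and these do not overlap.

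**Figure D2:**
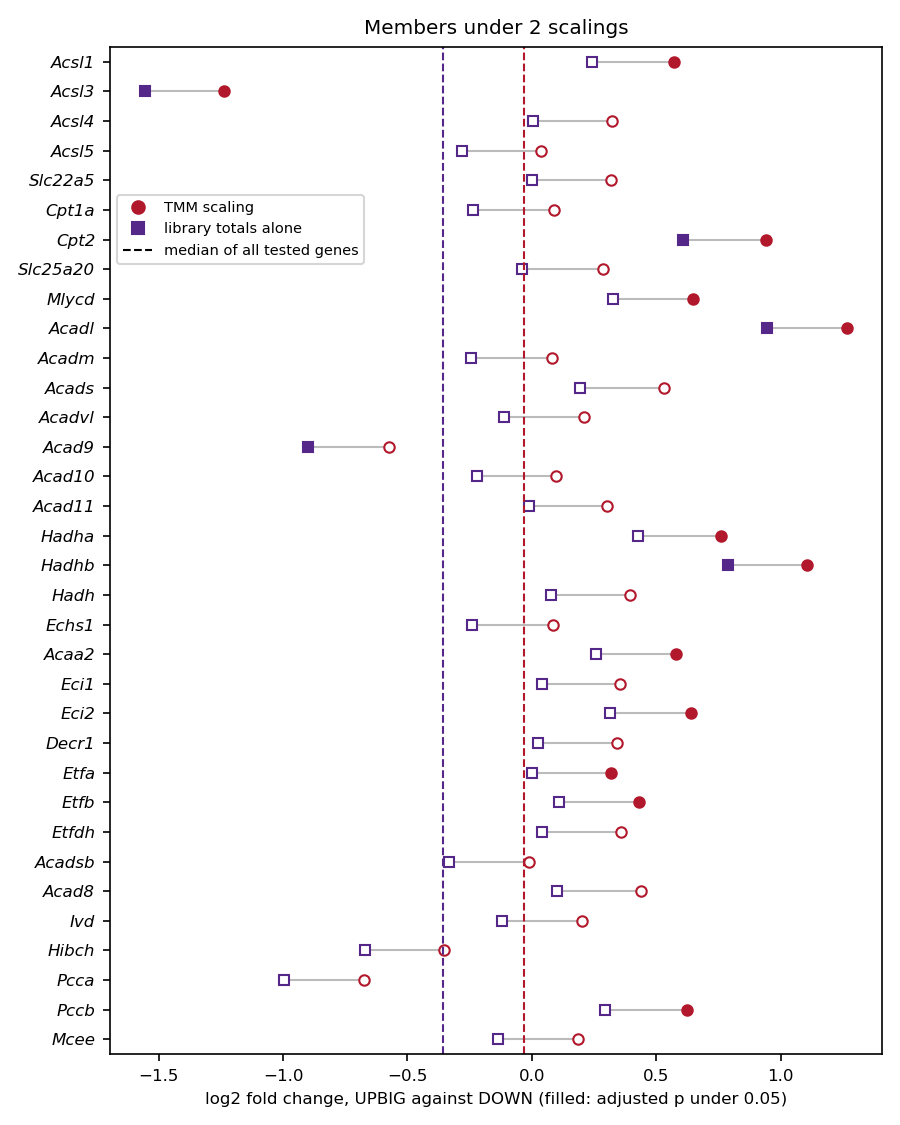
Log2 fold change of each member in UPBIG against DOWN (horizontal axis) with TMM scaling (circles) and with library totals alone (squares); filled symbols have an adjusted p under 0.05, and the dashed lines mark the median of all tested genes under each scaling, -0.03 and -0.36. Every member shifts left by about the same amount, and Acadl, Cpt2, Hadhb and Acsl3 are filled under both.

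Levels per length spanned a wide range among the members. On the scale of CPM per kilobase of the principal transcript, averaged over the 12 libraries, the level was 344.8 for Etfb, 84.9 for Etfa, 71.2 for Mcee, 68.3 for Acaa2, 60.0 for Echs1 and 49.8 for Acadl. The lowest levels were 0.931 CPM per kilobase for Acsl3 and 0.367 for Acad10, and 16 of the 34 were above 10. On this scale Acadl stood at 81.5 ± 6.55 in UPBIG, 34.01 ± 3.40 in UPSMALL and 33.9 ± 1.61 in DOWN (SD, n = 4 each). Echs1 stood at 62.5 ± 2.92 in UPBIG, 58.7 ± 5.50 in UPSMALL and 58.9 ± 3.31 in DOWN. Acadl was thus above Echs1 in UPBIG and below it in UPSMALL and DOWN.

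**Figure D3:**
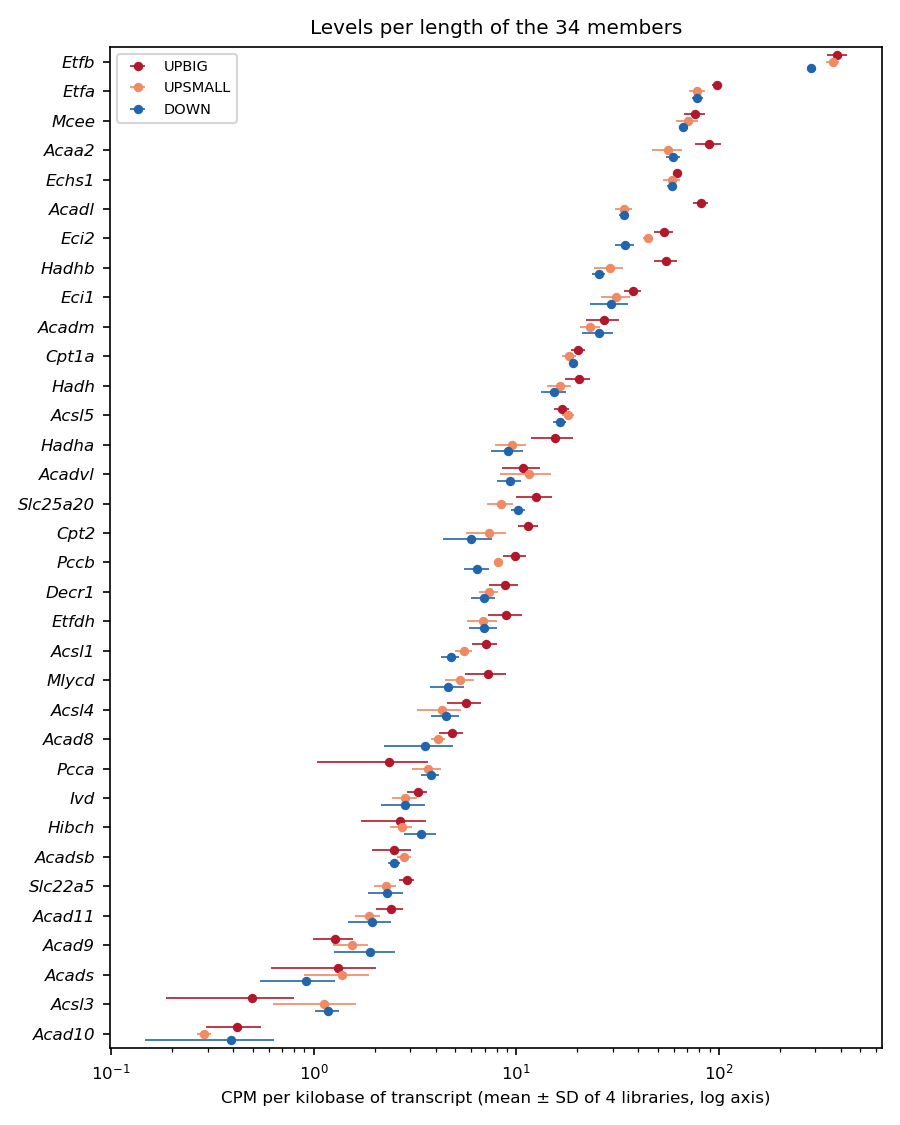
Level of each member in CPM per kilobase of its principal transcript (logarithmic horizontal axis), mean and SD of the 4 libraries of UPBIG, UPSMALL and DOWN, ordered by the mean of all 12 libraries. Etfb is highest at 344.8 and Acad10 lowest at 0.367, and UPBIG stands farthest from the other groups for Acadl, Hadhb and, at a low level, Acsl3.

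Fatty acid activation split by enzyme. Of the 4 long-chain acyl-CoA synthetases, Acsl1 was higher and Acsl3 lower in UPBIG than in DOWN. Acsl1, the main synthetase of oxidative tissues and of activated macrophages, had 24.9, 26.2, 25.7 and 33.2 CPM in UPBIG, 21.9, 18.6, 23.5 and 21.96 CPM in UPSMALL, and 17.3, 18.7, 16.9 and 21.2 CPM in DOWN. Every UPBIG library was above all others, and UPSMALL overlapped DOWN. UPBIG differed from DOWN by a log2 fold change of 0.57 ± 0.15 (SE) (adjusted p = 0.0105) and from UPSMALL by 0.35 ± 0.15 (adjusted p = 0.196).

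Acsl3, a synthetase of the endoplasmic reticulum and of lipid droplets, had 0.872, 1.49, 3.69 and 1.77 CPM in UPBIG, 3.40, 4.15, 2.94 and 7.27 CPM in UPSMALL, and 4.93, 4.09, 5.37 and 4.15 CPM in DOWN. All UPBIG libraries were below all DOWN libraries, and UPBIG 3 reached into the range of UPSMALL. On the log2 scale the fold change was -1.24 ± 0.40 in UPBIG against DOWN (adjusted p = 0.0378) and -1.18 ± 0.40 in UPBIG against UPSMALL (adjusted p = 0.0964). Acsl3 had few counts, at 14 to 198 in a library. The difference from DOWN did not pass without any one of UPBIG 1, UPBIG 2, UPBIG 4 or the 4 DOWN libraries (adjusted p of 0.053 to 0.102). Without UPBIG 3 Acsl3 was lower in UPBIG than in UPSMALL too (log2 fold change -1.69, adjusted p = 0.0171). A stretch of 5.6% of its exon bases is shared with Utp14b on the same strand.

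The other synthetases did not pass. Acsl4, which prefers arachidonic acid, averaged 29.7 ± 5.76 CPM in UPBIG, 22.7 ± 5.53 CPM in UPSMALL and 23.8 ± 3.70 CPM in DOWN, with a log2 fold change of 0.32 in UPBIG against DOWN (adjusted p = 0.248). Acsl5, of the outer mitochondrial membrane and the endoplasmic reticulum, averaged 71.3 ± 6.04 CPM in UPBIG, 76.5 ± 5.19 CPM in UPSMALL and 69.4 ± 4.91 CPM in DOWN. Its log2 fold change in UPBIG against DOWN was 0.04 (adjusted p = 0.862) with a 95% interval of -0.19 to 0.27, and -0.28 with library totals alone. The ratio of Acsl1 to Acsl5 counts within a library, which no scaling touches, was 0.342 to 0.532 in UPBIG, 0.255 to 0.307 in UPSMALL and 0.234 to 0.304 in DOWN.

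In the carnitine shuttle, the inner-membrane transferase was higher in UPBIG and the outer-membrane one was not called. Cpt2, which rebuilds acyl-CoA from acylcarnitine on the matrix side, had 31.5, 27.5, 25.55 and 24.6 CPM in UPBIG, 15.3, 21.3, 12.9 and 19.8 CPM in UPSMALL, and 15.4, 11.65, 10.65 and 19.1 CPM in DOWN. No UPBIG library overlapped either of the other groups. UPBIG against DOWN gave a log2 fold change of 0.94 ± 0.20 (adjusted p = 0.00259) and UPBIG against UPSMALL one of 0.65 ± 0.20 (adjusted p = 0.0598), and the second passed without UPSMALL 2 (adjusted p = 0.0445) or DOWN 4 (adjusted p = 0.0384) and by DESeq2 and limma-voom.

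Cpt1a, the transferase of the outer membrane and the step that malonyl-CoA inhibits, had 81.1, 81.95, 95.4 and 90.5 CPM in UPBIG, 76.0, 76.5, 88.35 and 75.1 CPM in UPSMALL, and 82.0, 78.7, 83.4 and 84.2 CPM in DOWN. The 3 groups overlap. UPBIG against DOWN gave a log2 fold change of 0.09 ± 0.10 (adjusted p = 0.633) with a 95% interval of -0.13 to 0.30, and -0.24 with library totals alone. The ratio of Cpt2 to Cpt1a counts was 0.268 to 0.388 in UPBIG, 0.146 to 0.279 in UPSMALL and 0.128 to 0.227 in DOWN.

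Mlycd, the decarboxylase that removes malonyl-CoA, had 17.1, 19.1, 11.0 and 14.5 CPM in UPBIG, 12.3, 9.94, 13.35 and 9.59 CPM in UPSMALL, and 12.1, 10.6, 7.81 and 8.91 CPM in DOWN. UPBIG 3 fell within the range of both other groups. UPBIG against DOWN had a log2 fold change of 0.65 ± 0.21 (adjusted p = 0.037), and the call was lost without any one of UPBIG 1, UPBIG 2, UPBIG 4, DOWN 2, DOWN 3 or DOWN 4 (adjusted p of 0.0528 to 0.13).

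Slc25a20, the carrier that exchanges acylcarnitine for carnitine, averaged 22.2 ± 4.45 CPM in UPBIG, 14.9 ± 2.20 CPM in UPSMALL and 18.2 ± 1.49 CPM in DOWN. Every UPBIG library was above every UPSMALL library, with a log2 fold change of 0.57 ± 0.17 just outside the threshold (adjusted p = 0.0523), which passed without UPBIG 3 (adjusted p = 0.0345) or UPSMALL 2 (adjusted p = 0.0457). With all libraries kept, it passed by DESeq2 (adjusted p = 0.0198), with RLE size factors and with the filter of 5 CPM in 4 libraries. It did not pass by limma-voom, with library totals alone, with no filter on low counts, with the replicate block or with only the 8 libraries compared. Against DOWN the log2 fold change was 0.29 ± 0.17 (adjusted p = 0.278), and -0.04 with library totals alone. Slc22a5, the carnitine importer of the plasma membrane, averaged 8.84 ± 0.733 CPM in UPBIG, 6.95 ± 0.878 CPM in UPSMALL and 7.08 ± 1.39 CPM in DOWN and was not called.

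Among the 7 straight-chain dehydrogenases, the first oxidation of each turn, only Acadl passed the test. Acadl, the long-chain acyl-CoA dehydrogenase, lies on the minus strand of chromosome 1 (mm10, chr1:66830839-66863277). It had 164, 167.5, 139.9 and 153 CPM in UPBIG, 58.9, 70.1, 60.2 and 71.5 CPM in UPSMALL, and 61.0, 67.3, 63.9 and 67.4 CPM in DOWN. Every UPBIG library was far above all others, and UPSMALL overlapped DOWN.

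Its log2 fold change was the largest of the members in both comparisons with UPBIG, at 1.27 ± 0.11 against DOWN (adjusted p = 1.36e-07) and 1.26 ± 0.11 against UPSMALL (adjusted p = 4.72e-07). It passed with every library left out in turn, with log2 fold changes of 1.23 to 1.32 against DOWN. The window around its start is shown because the change is the largest among the members. It runs from 250 bases before to 50 after the annotated start in RefSeq (GRCm38.p6, the assembly of mm10), at chr1:66863260-66863559 on the minus strand, 5′ to 3′, with no capitals, since none of the motifs searched was found in it.
Acadl: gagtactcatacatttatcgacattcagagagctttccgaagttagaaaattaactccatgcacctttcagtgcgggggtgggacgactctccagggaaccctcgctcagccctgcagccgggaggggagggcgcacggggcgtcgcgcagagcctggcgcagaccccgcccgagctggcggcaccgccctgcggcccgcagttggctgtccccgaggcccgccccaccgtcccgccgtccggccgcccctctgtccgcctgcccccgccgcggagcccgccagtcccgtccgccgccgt

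The remaining dehydrogenases did not pass in any comparison. Acadm, for medium chains, averaged 55.6 ± 10.4 CPM in UPBIG, 47.5 ± 5.33 CPM in UPSMALL and 52.6 ± 9.13 CPM in DOWN, and its log2 fold change of 0.08 ± 0.15 in UPBIG against DOWN (adjusted p = 0.782) turned to -0.03 without UPBIG 3, -0.01 without DOWN 2 and -0.25 with library totals alone. Acadvl, for very long chains, averaged 23.4 ± 4.91 CPM in UPBIG, 25.1 ± 6.97 CPM in UPSMALL and 20.2 ± 2.71 CPM in DOWN, a log2 fold change of 0.21 ± 0.20 (adjusted p = 0.533) in UPBIG against DOWN that was -0.11 with library totals alone. It shares 42.9% of its exon bases with Dvl2 on the other strand, and no source used here states whether counting used strand, which leaves its counts uncertain.

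Acads, for short chains, averaged 2.47 ± 1.32 CPM in UPBIG, 2.59 ± 0.910 CPM in UPSMALL and 1.71 ± 0.689 CPM in DOWN. Acad9, which also helps to assemble respiratory complex I, averaged 5.01 ± 1.13 CPM in UPBIG, 6.09 ± 1.19 CPM in UPSMALL and 7.46 ± 2.49 CPM in DOWN. Its log2 fold change of -0.57 ± 0.27 in UPBIG against DOWN (adjusted p = 0.167) passed as lower with library totals alone (log2 fold change -0.90, adjusted p = 0.0236). Acad10 averaged 1.61 CPM in UPBIG, 1.11 CPM in UPSMALL and 1.499 CPM in DOWN, and Acad11 averaged 8.30 CPM in UPBIG, 6.44 CPM in UPSMALL and 6.73 CPM in DOWN.

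Within each library the balance among the dehydrogenases was shifted toward Acadl in UPBIG. Acadl had 2.05 to 3.83 counts for each Acadm count in UPBIG, against 1.30 to 1.45 in UPSMALL and 1.02 to 1.67 in DOWN. It had 5.35 to 9.39 counts for each Acadvl count in UPBIG, against 1.78 to 3.68 in UPSMALL and 2.64 to 3.82 in DOWN. Against Etfa, the flavoprotein subunit that takes up the electrons of all these enzymes, the ratio was 1.06 to 1.25 in UPBIG, 0.530 to 0.732 in UPSMALL and 0.539 to 0.658 in DOWN. These pairs, and the other pairs whose ratios are given in these results, were chosen after their values were seen and carry no test. The ratios of Eci2 to Eci1 and of Etfa to Etfdh overlapped in every pair of groups.

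The trifunctional protein and the thiolase were higher in UPBIG than in both other groups, while the short-chain hydratase was not called. Hadhb, the thiolase subunit of the trifunctional protein, had 105, 126, 94.98 and 124 CPM in UPBIG, 48.8, 54.3, 70.5 and 63.9 CPM in UPSMALL, and 50.6, 49.4, 58.1 and 51.1 CPM in DOWN. No UPBIG library overlapped the other groups. UPBIG differed by a log2 fold change of 1.105 ± 0.13 against DOWN (adjusted p = 9.21e-06) and 0.92 ± 0.13 against UPSMALL (adjusted p = 0.000162). Its estimated count was not whole in any of the 12 libraries, so some of its reads were shared out with similar sequences. Counts were also not whole in 12 libraries for Slc22a5 and Acad9, in 11 for Eci2 and Acadvl, in 10 for Eci1 and in fewer for some other members.

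Hadha, the subunit that carries the hydratase and the long-chain dehydrogenase, had 83.5, 58.9, 50.2 and 56.5 CPM in UPBIG, 42.9, 38.7, 42.8 and 28.8 CPM in UPSMALL, and 35.4, 35.8, 29.9 and 46.0 CPM in DOWN. UPBIG lay above the other groups in every library, with UPBIG 1 highest and DOWN 4 close to the lowest UPBIG value. The log2 fold change was 0.76 ± 0.17 against DOWN (adjusted p = 0.00424) and 0.70 ± 0.17 against UPSMALL (adjusted p = 0.0188). The second call was lost without UPBIG 1 (adjusted p = 0.0741) or UPSMALL 4 (adjusted p = 0.056). The ratio of Hadhb to Hadha counts was 1.26 to 2.19 in UPBIG, 1.14 to 2.22 in UPSMALL and 1.11 to 1.94 in DOWN, and these ranges overlap.

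The subunits are encoded by neighbours on chromosome 5 that point away from each other: Hadha at chr5:30118304-30155162 on the minus strand and Hadhb at chr5:30155248-30184593 on the plus strand (mm10). Only 85 bases separate the annotated genes. The window around the start of Hadhb (RefSeq, GRCm38.p6, chr5:30155003-30155302, plus strand) is printed because it holds this stretch, marked by capitals, together with the beginning of Hadha on the other strand.
Hadhb: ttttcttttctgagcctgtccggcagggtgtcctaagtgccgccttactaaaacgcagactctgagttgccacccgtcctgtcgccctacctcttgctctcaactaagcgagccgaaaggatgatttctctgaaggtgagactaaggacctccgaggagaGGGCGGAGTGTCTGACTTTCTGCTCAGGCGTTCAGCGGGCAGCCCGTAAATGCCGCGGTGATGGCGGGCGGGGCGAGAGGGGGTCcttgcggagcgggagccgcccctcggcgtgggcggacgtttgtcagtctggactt

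Acaa2, the mitochondrial thiolase for shorter chains, had 159, 133, 111 and 136 CPM in UPBIG, 79.7, 100, 93.9 and 67.4 CPM in UPSMALL, and 91.4, 93.7, 95.9 and 80.5 CPM in DOWN. No UPBIG library overlapped the other groups. UPBIG differed by a log2 fold change of 0.58 ± 0.13 against DOWN (adjusted p = 0.00493) and 0.66 ± 0.13 against UPSMALL (adjusted p = 0.00453).

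Echs1, the hydratase for short chains, had 99.6, 101, 90.8 and 98.2 CPM in UPBIG, 82.8, 103, 89.4 and 89.9 CPM in UPSMALL, and 92.5, 89.2, 86.7 and 98.6 CPM in DOWN. The groups overlap. Its log2 fold change in UPBIG against DOWN was 0.09 ± 0.10 (adjusted p = 0.64) with a 95% interval of -0.13 to 0.30, and -0.24 with library totals alone. Hadh, the dehydrogenase of shorter 3-hydroxyacyl chains, averaged 36.4 ± 5.22 CPM in UPBIG, 29.3 ± 3.97 CPM in UPSMALL and 27.6 ± 3.98 CPM in DOWN. Its log2 fold change of 0.40 ± 0.15 in UPBIG against DOWN (adjusted p = 0.0771) passed without UPBIG 3 (adjusted p = 0.0431) or DOWN 1 (adjusted p = 0.0398) and by limma-voom (adjusted p = 0.0357).

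Hadhb and Acaa2 were called and Echs1 and Hadh were not, so the ratios between them in part restate the calls. Within the libraries these enzymes stood in different proportions in UPBIG than in the other groups. Hadhb had 1.046 to 1.26 counts for each Echs1 count in UPBIG, against 0.526 to 0.788 in UPSMALL and 0.518 to 0.670 in DOWN. Acaa2 had 1.23 to 1.601 counts for each Echs1 count in UPBIG, against 0.750 to 1.05 in UPSMALL and 0.817 to 1.11 in DOWN. Hadhb had 3.01 to 3.15 counts for each Hadh count in UPBIG, against 1.42 to 2.84 in UPSMALL and 1.53 to 2.15 in DOWN.

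**Figure D4:**
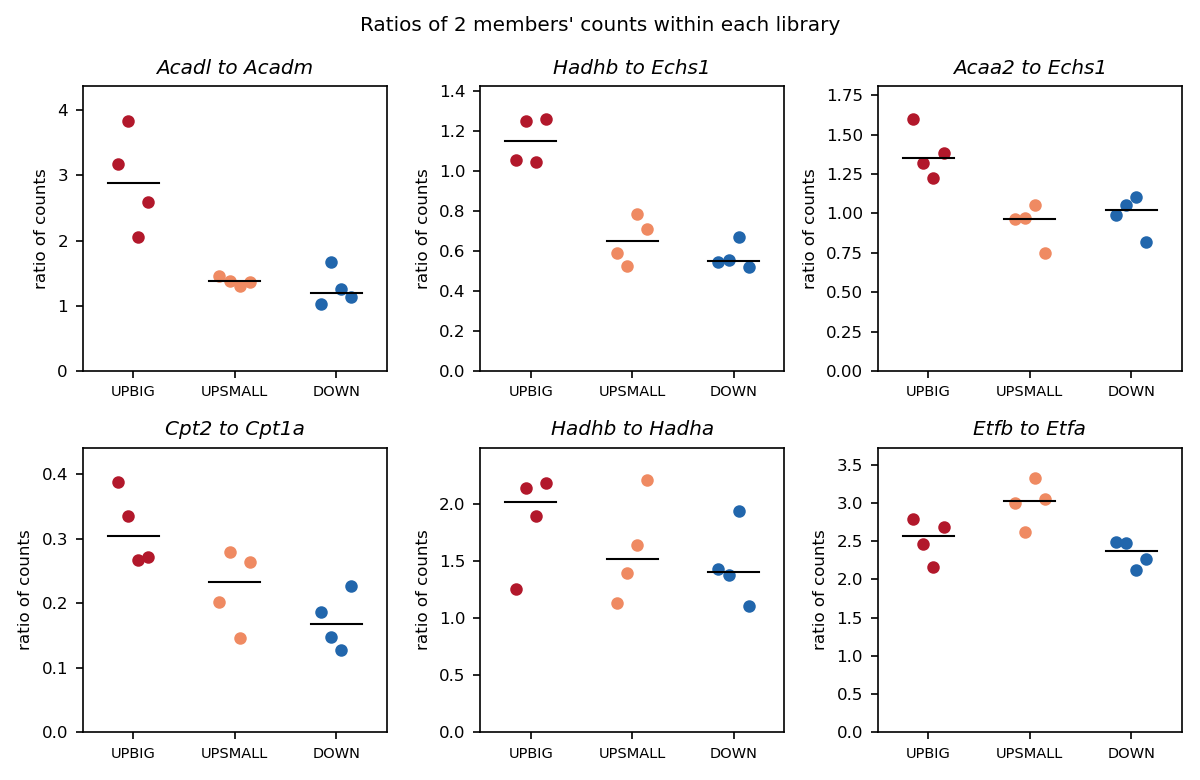
Ratio of the counts of a pair of members within each library (vertical axis, no scaling involved) in UPBIG, UPSMALL and DOWN; points are libraries and bars are medians. The ratios of Acadl to Acadm, Hadhb to Echs1 and Acaa2 to Echs1 do not overlap between UPBIG and the other groups. Cpt2 to Cpt1a does not overlap between UPBIG and DOWN, and Hadhb to Hadha overlaps in every pair of groups. The pairs were chosen after their values were seen and carry no test.

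Of the auxiliary enzymes, which prepare unsaturated chains for the spiral, Eci2 was higher in UPBIG than in DOWN, with UPSMALL between them. Eci2, an enoyl-CoA isomerase of mitochondria and peroxisomes, had 86.4, 100.4, 83.8 and 103.7 CPM in UPBIG, 76.7, 76, 75.0 and 83.0 CPM in UPSMALL, and 62.6, 65.8, 50.7 and 61.3 CPM in DOWN. All UPBIG libraries were above all UPSMALL libraries, which were above all DOWN libraries. The log2 fold change was 0.64 ± 0.11 in UPBIG against DOWN (adjusted p = 0.000638), 0.27 ± 0.11 in UPBIG against UPSMALL (adjusted p = 0.211, and -0.014 with library totals alone) and 0.37 ± 0.11 in UPSMALL against DOWN (adjusted p = 0.133).

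Eci1, the other mitochondrial isomerase, averaged 42.8 ± 4.18 CPM in UPBIG, 35.5 ± 5.75 CPM in UPSMALL and 33.5 ± 7.11 CPM in DOWN, with a log2 fold change of 0.36 ± 0.16 in UPBIG against DOWN (adjusted p = 0.137). Decr1, the dienoyl-CoA reductase, averaged 26.0 ± 4.25 CPM in UPBIG, 21.8 ± 2.33 CPM in UPSMALL and 20.5 ± 2.85 CPM in DOWN, with a log2 fold change of 0.34 ± 0.16 (adjusted p = 0.155). Neither passed in any comparison.

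Both subunits of the electron transfer flavoprotein were higher in UPBIG than in DOWN, with smaller folds than Acadl or Hadhb. Etfb, its beta subunit and the member with the highest level per length, had 366, 360.3, 284 and 363 CPM in UPBIG, 333, 319, 353 and 298 CPM in UPSMALL, and 269, 253, 251 and 245 CPM in DOWN. UPBIG and UPSMALL overlapped, and both were above all DOWN libraries. The log2 fold change was 0.43 ± 0.11 in UPBIG against DOWN (adjusted p = 0.00731), and with library totals alone it was 0.11 and not called. It was 0.08 ± 0.11 in UPBIG against UPSMALL (adjusted p = 0.786, and -0.20 with library totals alone) and 0.36 ± 0.11 in UPSMALL against DOWN (adjusted p = 0.112, and 0.0361 by DESeq2). A gene model named Gm45233 on the same strand covers 53.0% of the exon bases of Etfb. Gm45233 had either 0 counts or no row in the count table, which were not told apart.

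Etfa, the alpha subunit, had 131, 146, 132 and 135 CPM in UPBIG, 111, 122, 106 and 97.7 CPM in UPSMALL, and 108, 102, 119 and 108 CPM in DOWN. Every UPBIG library was above all others, and UPSMALL overlapped DOWN. UPBIG had a log2 fold change of 0.32 ± 0.10 against DOWN (adjusted p = 0.0372) and 0.32 ± 0.10 against UPSMALL (adjusted p = 0.0793). The call against DOWN was lost without any one UPBIG library or without DOWN 1, DOWN 2 or DOWN 4 (adjusted p of 0.0504 to 0.103). It was also lost with no filter on low counts (adjusted p = 0.108), and with library totals alone the fold change was -0.001. Etfdh, which passes the electrons on to ubiquinone, averaged 21.3 ± 4.01 CPM in UPBIG, 16.3 ± 2.77 CPM in UPSMALL and 16.6 ± 2.65 CPM in DOWN and did not pass (log2 fold change 0.36 ± 0.18 in UPBIG against DOWN, adjusted p = 0.194).

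Among the branched and odd-chain enzymes, Pccb was higher in UPBIG than in DOWN, and its partner subunit Pcca did not pass. Pccb, the beta subunit of propionyl-CoA carboxylase, had 20.5, 21.3, 22.9 and 27.0 CPM in UPBIG, 19.2, 18.2, 18.5 and 19.9 CPM in UPSMALL, and 13.4, 13.8, 14.3 and 18.0 CPM in DOWN. The 3 groups did not overlap and stepped down in that order. The log2 fold change was 0.62 ± 0.15 in UPBIG against DOWN (adjusted p = 0.00738), 0.27 ± 0.15 in UPBIG against UPSMALL (adjusted p = 0.368, and -0.01 with library totals alone) and 0.35 ± 0.15 in UPSMALL against DOWN (adjusted p = 0.334).

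Pcca, its alpha subunit, had 1.31, 8.43, 6.09 and 8.73 CPM in UPBIG, 8.71, 8.05, 9.65 and 11.5 CPM in UPSMALL, and 9.18, 10.9, 8.82 and 10.3 CPM in DOWN. All UPBIG libraries were below all DOWN libraries, with UPBIG 1 far below and UPBIG 4 only narrowly, and the log2 fold change of -0.68 ± 0.36 in UPBIG against DOWN did not pass (adjusted p = 0.226). The ratio of Pccb to Pcca counts was 15.7 in UPBIG 1 and 2.54 to 3.75 in the other UPBIG libraries, against 1.72 to 2.26 in UPSMALL and 1.27 to 1.75 in DOWN.

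None of the other 5 passed in a comparison. Mcee, the epimerase that follows propionyl-CoA carboxylase, averaged 63.1 ± 7.40 CPM in UPBIG, 58.2 ± 7.01 CPM in UPSMALL and 55.4 ± 3.05 CPM in DOWN. Acadsb, of isoleucine breakdown, averaged 15.1 CPM in UPBIG, 17.1 CPM in UPSMALL and 15.2 CPM in DOWN. Acad8 and Hibch, of valine breakdown, averaged 13.8 and 4.86 CPM in UPBIG, 11.8 and 4.98 CPM in UPSMALL, and 10.2 and 6.23 CPM in DOWN. Ivd, of leucine breakdown, averaged 12.0 CPM in UPBIG, 10.4 CPM in UPSMALL and 10.4 CPM in DOWN.

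**Figure D5:**
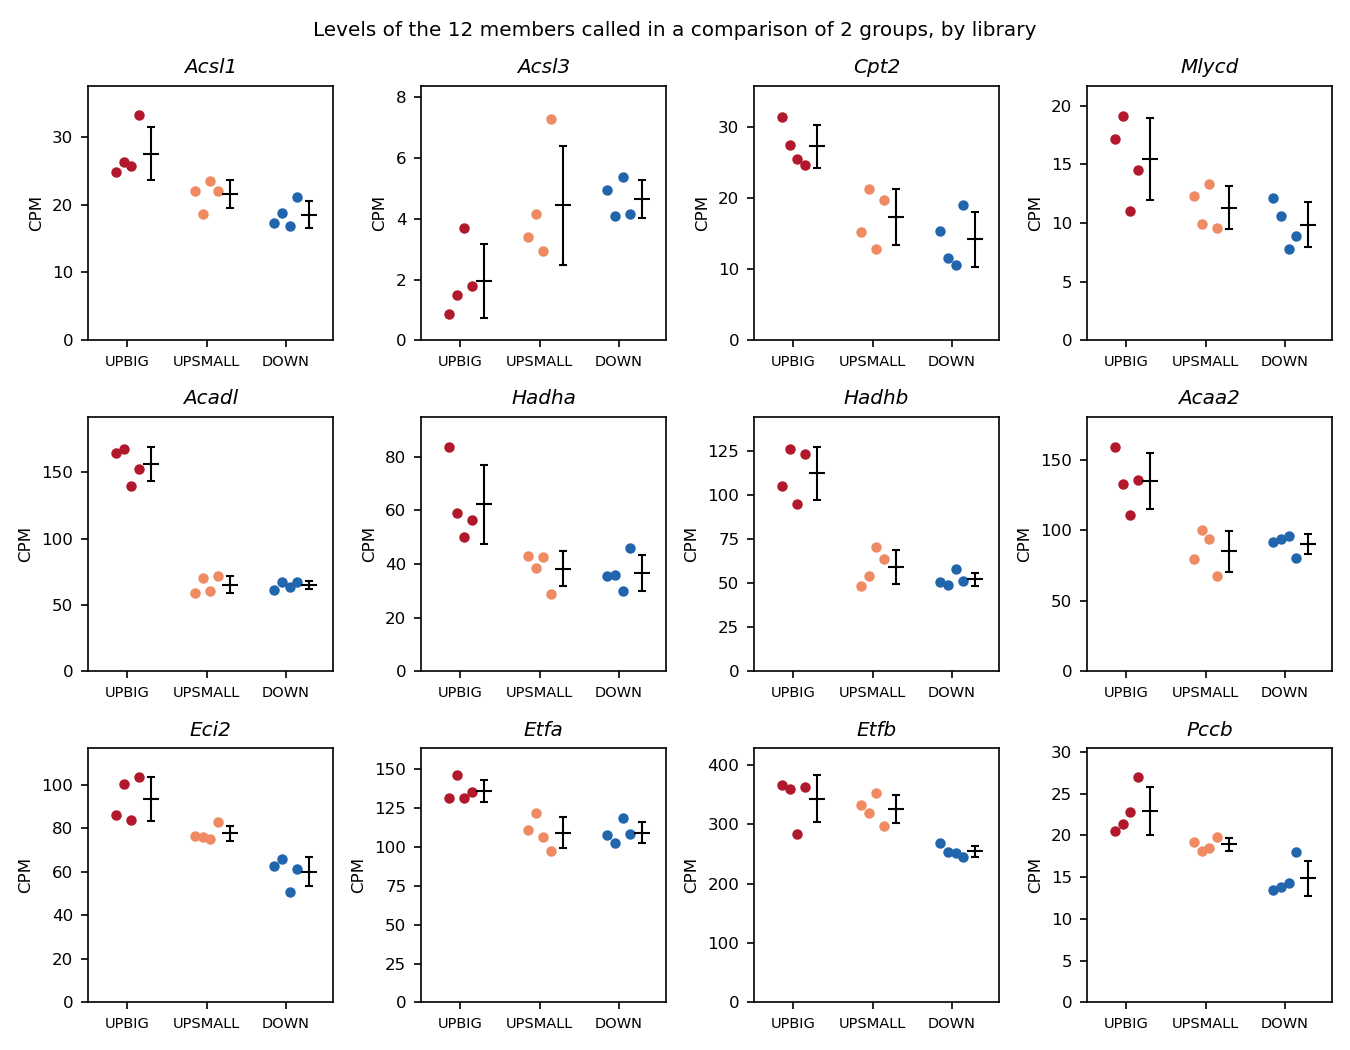
Level in CPM (vertical axis, from 0) of the 12 members called in a comparison of 2 groups, in the 4 libraries of UPBIG, UPSMALL and DOWN; points are libraries and the bar beside them is the mean and SD. For Acadl, Hadhb, Hadha, Acaa2, Cpt2, Acsl1 and Etfa every UPBIG library lies above both other groups. Eci2 and Pccb step down from UPBIG through UPSMALL to DOWN. Etfb sets UPBIG and UPSMALL above DOWN, Mlycd overlaps between groups, and Acsl3 has its lowest mean in UPBIG.

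By step, the trifunctional protein and later enzymes had the largest median. Their log2 fold change in UPBIG against DOWN had a median of 0.58, with 3 of 5 called, and the median was 0.36 in electron transfer (2 of 3), 0.36 in the auxiliary enzymes (1 of 3), 0.32 in the carnitine shuttle (2 of 5), 0.21 in the straight-chain dehydrogenases (1 of 7), 0.19 in the branched and odd-chain enzymes (1 of 7) and 0.18 in activation (1 higher and 1 lower of 4). The differences between steps were not tested. The summed level of the 7 straight-chain dehydrogenases was 245.6 to 263 CPM in UPBIG, 141.9 to 169.9 CPM in UPSMALL and 147.5 to 163 CPM in DOWN, which Acadl mostly sets.

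The windows of 250 bases before to 50 after the start of the members were read for the core motifs of nuclear receptors that are known to drive fatty acid oxidation. RefSeq (GRCm38.p6) gave 33 windows for 31 members. The core hexamer AGGTCA, on either strand, was in 18.2% of the member windows and 16.3% of all 32851 windows, and in none of the 10 members called higher that had a window. The direct repeat AGGTCANAGGTCA with up to 2 mismatches was in 12.1% of the member windows and 3.86% of all windows, in the genes Echs1, Etfa, Pcca and Slc25a20, of which Etfa was called higher. The extended core TCAAGGTCA was in none of the member windows and in 0.423% of all windows. The repeat can hold the hexamer, and the extended core always does, so a window can count for more than 1.

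Etfa, which was called, and Echs1, which was not, are printed to show such matches, in capitals. The Etfa window is chr9:55512194-55512493 on the minus strand, with the match on its opposite strand. The Echs1 window is chr7:140116372-140116671 on the minus strand, with the match on the printed strand, where its first copy is also the core hexamer (both GRCm38.p6). A match describes letters, not a bound site.
Etfa: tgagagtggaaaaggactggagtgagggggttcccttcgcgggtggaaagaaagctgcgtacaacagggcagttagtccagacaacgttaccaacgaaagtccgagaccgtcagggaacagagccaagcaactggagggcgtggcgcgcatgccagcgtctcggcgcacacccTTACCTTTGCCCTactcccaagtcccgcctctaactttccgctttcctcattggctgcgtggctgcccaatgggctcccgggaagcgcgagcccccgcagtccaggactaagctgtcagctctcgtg
Echs1: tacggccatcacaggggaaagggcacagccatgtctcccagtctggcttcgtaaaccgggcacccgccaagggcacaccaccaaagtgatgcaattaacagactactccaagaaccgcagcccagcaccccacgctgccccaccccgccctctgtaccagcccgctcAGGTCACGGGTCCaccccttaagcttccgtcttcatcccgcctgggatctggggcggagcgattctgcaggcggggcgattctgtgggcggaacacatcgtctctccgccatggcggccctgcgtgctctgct

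The windows of the members held more CpG than the median of all 32851 windows, which are not limited to the 12625 genes tested. Windows of the tested genes alone were not compared, so the CpG content is not shown to be particular to the members. The median window held 20 CpG in genes called higher and 18 in the other members, against 7 in all windows, and the median G and C content was 60.3% in genes called higher, 62.3% in the other members and 52.7% in all windows.

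Beyond the members, 56 further genes of the pathway and its regulators were listed, also with earlier results of these data known. Of these, 44 were tested, 11 fell under the filter on low counts and 1, Acsl6, had no row. In UPBIG against DOWN, 10 of the 44 were higher, or 22.7% beside 9.03% of all genes, and 0 lower beside 8.48%, with a median log2 fold change of 0.25 beside -0.03 over all genes. In UPBIG against UPSMALL 5 were higher, or 11.4% beside 3.22%, and in UPSMALL against DOWN 1, or 2.27% beside 0.594%. Pdk4, the kinase that closes pyruvate dehydrogenase and so favours fat as fuel, was at 14.8 ± 4.84 CPM in UPBIG, 1.38 ± 0.331 CPM in UPSMALL and 0.0894 ± 0.116 CPM in DOWN, from 946, 119 and 8 counts. It was the 1 gene of the list called in all 3 comparisons, with log2 fold changes of 7.22 ± 0.53 in UPBIG against DOWN (adjusted p = 1.81e-08), 3.43 ± 0.39 in UPBIG against UPSMALL (adjusted p = 1.35e-05) and 3.79 ± 0.54 in UPSMALL against DOWN (adjusted p = 0.0013, and 0.0864 by limma-voom). Only 8 counts in DOWN lie behind 2 of these fold changes. Without DOWN 1 they were 8.59 in UPBIG against DOWN and 5.16 in UPSMALL against DOWN, and the call stayed in all 3 comparisons with each library left out in turn.

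Crat, which swaps acetyl groups between CoA and carnitine, was at 72.4 ± 5.47 CPM in UPBIG, 45.5 ± 8.47 CPM in UPSMALL and 37.0 ± 3.74 CPM in DOWN. UPBIG had a log2 fold change of 0.97 ± 0.14 against DOWN (adjusted p = 6.21e-05) and 0.67 ± 0.14 against UPSMALL (adjusted p = 0.00474). Acot2, a mitochondrial thioesterase that frees fatty acids from CoA, was at 11.7 ± 2.67 CPM in UPBIG, 3.74 ± 0.921 CPM in UPSMALL and 3.04 ± 0.961 CPM in DOWN. Acot2 had a log2 fold change of 1.94 ± 0.28 in UPBIG against DOWN (adjusted p = 8.32e-05) and 1.65 ± 0.28 against UPSMALL (adjusted p = 0.000986), though its near-identical paralog Acot1 makes its counts uncertain.

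Slc25a44, a mitochondrial carrier of branched-chain amino acids, was at 24.5 ± 2.85 CPM in UPBIG, 15.1 ± 3.95 CPM in UPSMALL and 13.7 ± 1.38 CPM in DOWN. UPBIG had a log2 fold change of 0.83 ± 0.18 against DOWN (adjusted p = 0.00322) and 0.70 ± 0.18 against UPSMALL (adjusted p = 0.0252), the second lost without UPBIG 2, UPBIG 3, UPSMALL 3 or UPSMALL 4 (adjusted p of 0.067 to 0.0876). Ucp2, an inner-membrane carrier, completed the 5 higher in UPBIG than in UPSMALL, with a log2 fold change of 0.38 ± 0.11 (adjusted p = 0.0487) that was lost in 9 of 12 fits with a library left out, with adjusted p of 0.0587 to 0.142. The pathway's regulators Ppara and Ppargc1a and the muscle transferase Cpt1b were among the 11 under the filter.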

How the data were processed

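The authors deposited expected counts per gene and library, made with STAR and RSEM on mm10, per the submitters' processing notes; the sources used here give neither versions, annotation nor strand setting. Of the deposited expected counts, 13.8% were not whole, and they were rounded to whole numbers. Symbols and coordinates came from GENCODE M21, which matched 26775 of 26855 identifiers.

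Genes were filtered with filterByExpr, which left 12625, and edgeR 4.0.16 (R 4.3.3) fitted the 12 libraries in 1 model without a block, with TMM factors and the robust quasi-likelihood test. P-values were adjusted over all genes tested (Benjamini-Hochberg, threshold 0.05). Standard errors were taken from the fold change and its F statistic. CPM use TMM-scaled totals, and an SD is over 4 libraries. Library totals of 17109669 to 23282621 set the precision. Without molecular identifiers, reads are not independent molecules.

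The members and the lists of other pathway genes and markers were chosen with earlier results of these data known. Values in every library are given for members called in a pairwise comparison with a joint adjusted p among the 14 smallest, or called against the majority of their step; Cpt1a, Echs1 and Pcca were added after their values were seen. Of the other pathway genes, up to 4 called with the smallest p per comparison are named, with any needed to identify a count of 5 or fewer.

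The alternatives were DESeq2 1.42.0, limma-voom (limma 3.58.1) with quality weights, RLE size factors, library totals alone, no filter on low counts, a filter of 5 CPM in 4 libraries, a replicate block, a fit of the 8 libraries compared, and each library left out. The fit was tested on simulated data with known changes.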

Additional observations from a re-analysis of the deposited data

Results flagged for a closer look

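In 102 groups of 4 libraries (34 members in 3 groups), 5 had a library far from the other 3; chance alone flags about 1 in 20. Acsl1 was at 33.2 CPM in UPBIG 4, against 24.9 to 26.2 CPM in the other UPBIG libraries. Etfb was at 284.4 CPM in UPBIG 3, against 360.3 to 366 CPM in the other UPBIG libraries. Cpt1a was at 88.35 CPM in UPSMALL 3, against 75.1 to 76.5 CPM in the other UPSMALL libraries. In DOWN 3, Acsl4 was at 29.3 CPM, against 21.6 to 22.2 CPM in the other DOWN libraries, and Acad11 was at 9.13 CPM, against 5.68 to 6.08 CPM. The calls of Acsl1 and Etfb as higher in UPBIG than in DOWN passed with every library left out in turn, at adjusted p (edgeR's quasi-likelihood test) of 0.00845 to 0.0443 for Acsl1 and 0.00229 to 0.0249 for Etfb.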

How the results depend on the processing

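Of the 10 counts and 51 fold changes followed, library totals alone changed the most. The members called higher became 3 in UPBIG against DOWN and 3 in UPBIG against UPSMALL (Acaa2, Acadl and Hadhb), those called lower became 2 (Acad9 and Acsl3) and 2 (Acsl3 and Acsl5), the joint test called 3, and the other pathway genes called higher became 5 against DOWN and 2 against UPSMALL. Over all genes, UPBIG against DOWN then had 518 higher and 3237 lower, against 1140 and 1070 with TMM, and UPBIG against UPSMALL had 189 higher and 1433 lower, against 406 and 314. The scaling alone differs between these fits. Fold changes that turned sign with library totals alone were, in UPBIG against DOWN, Etfa at -0.001, Cpt1a at -0.24, Slc25a20 at -0.041, Acadm at -0.25, Acadvl at -0.11, Echs1 at -0.24 and Acsl5 at -0.28, and, in UPBIG against UPSMALL, Eci2 at -0.014, Etfb at -0.20 and Pccb at -0.008. None of the fold changes fitted turned sign with RLE size factors, DESeq2, limma-voom, no filter on low counts, the filter of 5 CPM in 4 libraries (49 of the 51, without Acsl3), the replicate block or only the 8 libraries compared; with a library left out, Acadm did, ranging from -0.03 (without UPBIG 3) through -0.01 (without DOWN 2) to 0.183 (without UPBIG 2).

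With the filter of 5 CPM in 4 libraries and with only the 8 libraries compared, 0 members were lower in UPBIG than in DOWN, since Acsl3 left the tested genes in the first and reached an adjusted p of 0.0501 in the second. DESeq2 called 7 members higher in UPBIG than in UPSMALL and 1 higher in UPSMALL than in DOWN, and limma-voom called 0 other pathway genes in UPSMALL against DOWN; the cause was not tested. With each library left out, members called higher numbered 9 to 11 in UPBIG against DOWN, 3 to 6 in UPBIG against UPSMALL and 0 to 0 in UPSMALL against DOWN. Those called lower numbered 0 to 1 in UPBIG against DOWN, 0 to 1 in UPBIG against UPSMALL (1 without UPBIG 3, Acsl3) and 0 to 0 in UPSMALL against DOWN. The joint test called 7 to 12, and other pathway genes called higher numbered 7 to 10, 3 to 5 and 1 to 1 in the same 3 comparisons.

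The replicate numbers do not pair the libraries by any label. After each gene's group mean was taken away, the remaining deviations of same-numbered libraries had correlations of -0.029 to 0.154. Among 4 candidates, chance alone would make the own number best in about 1 of 4 pairs. The own number was best in 9 of 12 pairs. These were 4 of 4 in UPBIG against DOWN, 2 of 4 in UPBIG against UPSMALL and 3 of 4 in UPSMALL against DOWN. Whether the numbers mark something shared was not tested, and the main fit had no block. With the replicate block, 11 members were higher and 1 lower in UPBIG against DOWN, 6 higher in UPBIG against UPSMALL (Cpt2 and Etfa added), 0 called in UPSMALL against DOWN, and 10 called jointly. Members at the lowest levels are limited by depth: Acad10 had 332 counts over all 12 libraries, and its 95% interval in UPBIG against DOWN ran from -0.97 to 1.16 on the log2 scale.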
